A study of Mus musculus with 16 samples.

Results

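The genes described here are 99 members of 7 enzyme families known from detoxification. They are glutathione transferases (Gst, 21 genes, and the membrane-bound Mgst, 3), sulfotransferases (Sult, 21) and UDP-glucuronosyltransferases (Ugt, 11). The others are aldehyde dehydrogenases (Aldh, 20), carboxylesterases (Ces, 17) and flavin-containing monooxygenases (Fmo, 6). All 99 were taken by their gene symbols, with pseudogenes left out, so not every member acts mainly in detoxification. They are 99 of the 22206 gene probesets of a mouse Clariom S array, 1 probeset each. Expression was measured in cells of the olfactory mucosa of S100a5-tauGFP reporter mice, in which green fluorescent protein marks expression of S100a5, an activity-dependent gene of olfactory sensory neurons. All 24 mice, of both sexes and 7 to 12 weeks old, spent 40 h in a chamber with an airflow of 3.1 L/min. Pulses of 10 s, either odorant or filtered air (vehicle), were given every 20 min over the last 14 h, starting at 26 h. The odorant is not named here, because the sample labels give bourgeonal while indole stands in the title of the series. The 24 mice made 8 pools of 3 mice, 4 for each treatment, and cells of each pool were taken as the source of 1 GFP+ and 1 GFP- array. The 4 groups of 4 arrays were thus vehicle GFP+, vehicle GFP-, odorant GFP+ and odorant GFP-. Every group carried the reporter, and the GFP- fraction held neurons too.

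The mucosa of the nose meets inhaled chemicals directly and is rich in enzymes that modify them. Monooxygenases and carboxylesterases add or uncover reactive groups, aldehyde dehydrogenases oxidise aldehydes to acids, and transferases attach glutathione, sulfate or glucuronic acid so that the product can leave the cell. In the olfactory epithelium this work is known mainly from sustentacular cells, which support the neurons, and from Bowman glands, and the same enzymes are thought to help clear odorants.

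Values are log2 probeset signals, in which 1 unit is a doubling. A value was taken as above background when it exceeded the 95th percentile of 23 control probesets on its own array (6.57 to 6.87). Differences were tested with limma on 4 arrays a group, without a term for the pool. P-values were adjusted by the Benjamini-Hochberg method over all 22206 gene probesets. A gene is called where the adjusted p was under 0.05. With vehicle, the mean of 11 markers of mature olfactory neurons was 17.26 to 17.33 in GFP+ and 17.13 to 17.16 in GFP- cells. With odorant it was 17.27 to 17.34 and 17.03 to 17.13. Of the 11, 2 were called higher in GFP+ cells with vehicle (7.76% of all gene probesets) and 1 with odorant (3.57% of all). There were 0 of the 11 at background in any group, and Omp among them was at 18.53 to 18.75. The fractions differed more in markers of some other cells. The mean of 9 sustentacular markers was 9.94 to 10.56 in GFP- and 8.28 to 8.74 in GFP+ cells with vehicle, and 9.84 to 11.2 and 7.95 to 9.3 with odorant. The mean of 8 immune markers was 10.52 to 11.9 against 6.11 to 6.5 with vehicle, and 10.34 to 11.42 against 5.94 to 6.49 with odorant. In GFP+ cells the sustentacular markers Krt8 and Sox2 were at background with either treatment, whereas the cytochrome P450 Cyp2g1 was at 14.76 ± 0.12 (SD, n = 4) with vehicle. All 5 horizontal basal cell markers and all 3 ensheathing glia markers were at background in every group. In such mixed samples, fewer cells of a type and less RNA in each cell cannot be told apart.

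Promoters are shown for the members on which the differences between fractions turn: Mgst1 and Sult1c1, the largest differences, Gsta3, called in both treatments, and Aldh18a1, the clearest one in the opposite direction. They run from 250 bases before to 50 after the start site in the RefSeq table (GRCm38.p6) and lie at chr6:138140277-138140576 (+ strand), chr17:53990582-53990881 (- strand), chr1:21240335-21240634 (+ strand) and chr19:40588414-40588713 (- strand). For Mgst1, 2 start sites were listed, and the window of 1 of them is shown. Capitals mark matches, on either strand, to the 4 motifs searched: the core TGACNNNGC of the antioxidant response element bound by Nrf2, the core GCGTG of the xenobiotic response element bound by the Ah receptor, TGATGNAA for the composite site of ATF4 and C/EBP, and the palindromic Olf1/EBF site.
Mgst1: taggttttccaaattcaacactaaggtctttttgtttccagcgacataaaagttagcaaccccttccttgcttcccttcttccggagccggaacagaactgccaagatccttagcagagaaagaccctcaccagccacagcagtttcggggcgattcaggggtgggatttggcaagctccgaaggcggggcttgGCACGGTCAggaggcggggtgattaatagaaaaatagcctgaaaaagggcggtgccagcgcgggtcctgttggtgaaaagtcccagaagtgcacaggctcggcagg
Sult1c1: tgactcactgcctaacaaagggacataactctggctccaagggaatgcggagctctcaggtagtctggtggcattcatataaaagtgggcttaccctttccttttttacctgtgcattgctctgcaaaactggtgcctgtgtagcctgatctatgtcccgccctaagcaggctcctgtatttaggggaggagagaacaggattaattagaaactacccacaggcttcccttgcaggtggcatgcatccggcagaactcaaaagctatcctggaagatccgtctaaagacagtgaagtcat
Gsta3: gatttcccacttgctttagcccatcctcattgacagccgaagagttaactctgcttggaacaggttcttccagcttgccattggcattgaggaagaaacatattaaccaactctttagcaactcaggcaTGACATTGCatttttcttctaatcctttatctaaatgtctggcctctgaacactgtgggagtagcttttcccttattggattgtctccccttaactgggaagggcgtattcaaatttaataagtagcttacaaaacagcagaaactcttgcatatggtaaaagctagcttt
Aldh18a1: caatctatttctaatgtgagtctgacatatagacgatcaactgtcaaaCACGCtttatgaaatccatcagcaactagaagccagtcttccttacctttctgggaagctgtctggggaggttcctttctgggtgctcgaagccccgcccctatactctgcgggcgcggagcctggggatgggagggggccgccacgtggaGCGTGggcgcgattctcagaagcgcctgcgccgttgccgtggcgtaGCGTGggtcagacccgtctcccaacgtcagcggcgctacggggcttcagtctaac

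Mgst1 held 1 match to TGACNNNGC, on the reverse strand at -56 to -48 from the start site, and Gsta3 held 1 on the forward strand at -121 to -113. Aldh18a1 held 3 matches to GCGTG, and none of the 4 motifs was found in the Sult1c1 window. None of these matches overlapped another. A window was listed for 82 of the 99 genes, and 15 genes had several start sites. Counting the first window of each gene, TGACNNNGC stood in 5 of the 82 (6.1%) against 12.5% of 27025 promoters, and GCGTG in 17 (20.7%) against 32.5%. TGATGNAA stood in 3 (3.66%) against 4.06%, and the Olf1/EBF site in 0 against 0.914%. A match is a description of the letters and no sign of binding.

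Few of the enzymes were detected in these cells. Of the 99 genes, 17 (17.2%) were above background on all 16 arrays, against 42.8% of all gene probesets. Another 65 (65.7%, against 44.4% of all) were at background on all 16, and 17 were above it on some arrays. The 17 detected throughout were 6 aldehyde dehydrogenases (Aldh18a1, Aldh3a2, Aldh3b1, Aldh4a1, Aldh5a1 and Aldh6a1), 5 glutathione transferases (Gstk1, Gstm1, Gstm2, Gstm4 and Gstz1), Mgst1 and Mgst3, the sulfotransferases Sult1c1, Sult1d1 and Sult4a1, and Fmo2. All 11 glucuronosyltransferases were at background on every array, 8 of them from the Ugt2 cluster, and the highest value among them was 5.97, for Ugt8a, which makes the galactolipids of myelin. So were 16 of 17 carboxylesterases and 17 of 21 sulfotransferases, including all 8 Sult2a genes. Ugt2a1, Ugt2a2 and the Ugt1a genes were not among the 11 glucuronosyltransferases, so their expression was not assessed. A probeset at background gives a bound and does not show that a gene is silent. Several families stand in tandem clusters of similar genes (Gstm1 to Gstm7, Gstp1 to Gstp3, Aldh1a1 with Aldh1a7, Ces1a to Ces1g, the Ugt2 and Sult2a genes), and whether their probesets share signal was not tested.

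Among enzymes that carry out conjugation, Sult1d1, a sulfotransferase known to act on catecholamines and other small phenols, was very bright in both fractions. It was at 18.27, 17.93, 17.98 and 18.15 in GFP- and 17.93, 18.15, 17.93 and 18.02 in GFP+ cells of vehicle pools 1 to 4, on arrays whose highest value was 19.4. With odorant it was at 18.13, 17.86, 18.00 and 17.94 in GFP- and 17.87, 17.91, 18.06 and 17.99 in GFP+ cells. The groups overlapped, and the GFP+ minus GFP- difference was -0.08 with vehicle and -0.02 with odorant (limma adjusted p = 0.75 and 0.94). Whether this probeset is near saturation was not tested. Sult4a1, a sulfotransferase best known from the brain, was at 14.20 ± 0.10 in GFP+ and 13.90 ± 0.23 in GFP- cells with vehicle (SD, n = 4), and at 14.21 ± 0.07 and 13.84 ± 0.12 with odorant. It was higher in GFP+ cells in 8 of 8 pools, by 0.01 to 0.53, but did not pass (adjusted p = 0.21 and 0.12). Mgst3, a membrane glutathione transferase that also reduces lipid peroxides, was at 13.84 ± 0.11 in GFP+ and 13.75 ± 0.08 in GFP- cells with vehicle (adjusted p = 0.67).

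**Figure D1:**
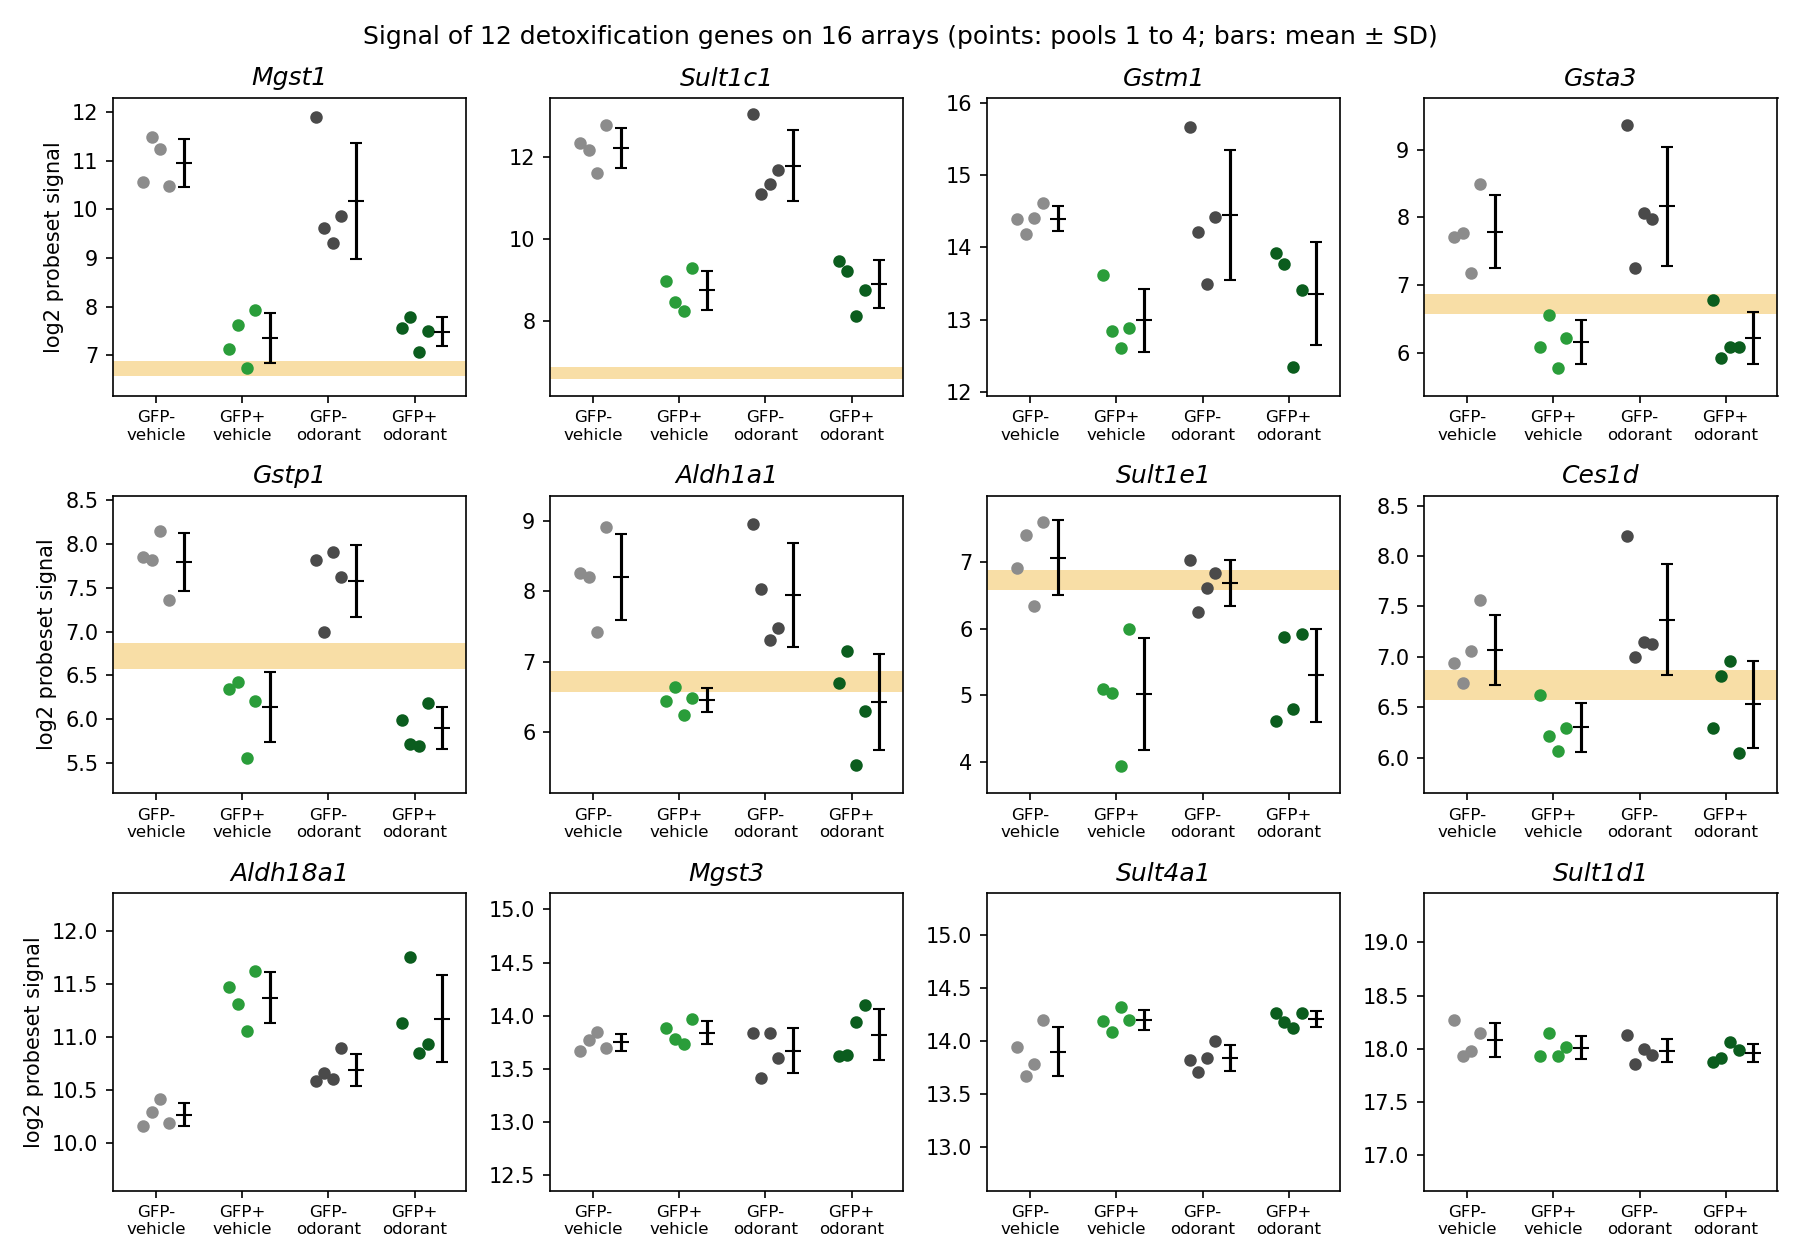
Log2 probeset signal (vertical axes, each panel on its own scale) of 12 genes in GFP- (grey) and GFP+ (green) cells after vehicle or odorant. Points are pools 1 to 4 from left to right, black bars the mean ± SD (n = 4), and the yellow band the background level over the 16 arrays (6.57 to 6.87), drawn where it falls within the axis; Mgst1 and Sult1c1 lay lower in GFP+ cells on every array, and Sult1d1 stayed near 18 in all 4 groups.

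GFP+ against GFP- cells with vehicle shows how the enzymes divide between the sorted fractions in mice that smelled only filtered air. Of the 99 genes, 21 were called lower in GFP+ cells (9.97% of all gene probesets were) and 2 higher (7.76% of all). The members' median difference was -0.08, against 0.08 over all gene probesets, and 65 of the 99 were at background on every array. Values of the fractions did not overlap for 18 genes lower in GFP+ cells (11.0% of all) and for 2 higher (11.9% of all). At an unadjusted p under 0.05 there were 35, against 30.7% of all. Of the 23 called, 9 had both group means at or under the background level, so no fold is given for them. Both other ways of scaling the arrays changed the split. Quantile normalization gave 13 lower and 4 higher (2034 and 2544 of all 22206 gene probesets). Subtraction of array medians moved the median of all gene probesets from 0.082 to 0.445. It gave 13 lower and 26 higher (1687 and 10363 of all), 20 of the 26 at background on all 16 arrays. All 13 of either setting were among the 21. Leaving out 1 pool at a time gave 11 (without pool 2) to 17 lower and 1 (without pool 1) to 3 higher. Of all 22206, 1633 to 1939 were lower and 846 to 1215 higher in those fits. Of the 23 calls, 10 held in all 4 of them. These 10 also held under the other alternatives in which they were tested: Mgst1, Sult1c1, Sult1e1, Gsta3, Gstm1, Gstp1, Gstt3, Aldh1a1, Aldh18a1 and Fmo6. The fit without dim probesets did not test Sult1e1, Gstt3 or Fmo6. Markers of sustentacular cells (8 of 9), immune cells (8 of 8), microvillar cells (7 of 7), globose basal and dividing cells (5 of 5), immature neurons (4 of 6) and Bowman glands (3 of 8) were called lower in the same comparison, with list medians of -1.42, -5.02, -3.59, -2.28, -3.31 and -0.60, and their part in the enzymes' differences was not tested.

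Mgst1, the microsomal glutathione transferase and peroxidase of the endoplasmic reticulum and outer mitochondrial membrane, differed most. It was at 10.57, 11.49, 11.25 and 10.49 in GFP- cells of vehicle pools 1 to 4 and at 7.13, 7.62, 6.74 and 7.92 in GFP+ cells. Every GFP+ array lay below every GFP- array, a 12.1-fold difference (-3.60 on the log2 scale, SE 0.30, limma adjusted p = 1.6e-05). Sult1c1, a sulfotransferase of small phenols, was at 12.34, 12.18, 11.61 and 12.80 in GFP- and at 8.96, 8.46, 8.25 and 9.30 in GFP+ cells. It was 11.3-fold lower in GFP+ cells, again with no overlap (-3.49, SE 0.28, limma adjusted p = 1.4e-05). Both genes stayed above background in GFP+ cells. Their calls held without any 1 of the pools, with adjusted p of at most 0.00046.

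Among the Gst genes, 10 of 21 were called lower in GFP+ cells (9.97% of all gene probesets) and 0 higher (7.76% of all), with a family median of -0.80 against 0.08 over all. The mu-class enzyme Gstm1 was at 14.39, 14.18, 14.41 and 14.61 in GFP- and 13.62, 12.85, 12.61 and 12.89 in GFP+ cells of the vehicle pools. It was 2.65-fold lower in GFP+ cells with no overlap (-1.41, SE 0.21, limma adjusted p = 0.00097). Its neighbour Gstm5 was 2.29-fold lower (adjusted p = 0.032), a call lost without pools 1 or 2 (up to 0.11) and under both other scalings. Gstm2 did not pass (-0.80, adjusted p = 0.051), though it was called lower with the pool as a block and with dim probesets left out. Gstm4, in the same cluster, was at 9.21 ± 0.32 in GFP+ and 9.17 ± 0.14 in GFP- cells (SD, n = 4; adjusted p = 0.90). The alpha-class Gsta3 was at 7.71, 7.77, 7.18 and 8.49 in GFP- cells and at background on the 4 GFP+ arrays, at least 2.20-fold lower (-1.63, SE 0.27, limma adjusted p = 0.0016). The pi-class Gstp1, at 7.85, 7.81, 8.15 and 7.36 in GFP- cells, was likewise at background in GFP+ cells and at least 2.20-fold lower (-1.66, SE 0.23, limma adjusted p = 0.00051). Its near copy Gstp2, at background in both groups, had a difference of -0.98 (adjusted p = 0.0087), lost without pools 2 or 4 (up to 0.052) and after quantile normalization. Gstp3 was not called (-0.44). Gsta4 was at least 1.52-fold lower (adjusted p = 0.022), a call lost without pools 1 or 2 (up to 0.14) and under both other scalings.

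The other 4 called glutathione transferases had both group means under the background level. Gsto1, of the omega class that also reduces arsenic compounds, was at 5.97 ± 0.76 in GFP- and 4.32 ± 0.84 in GFP+ cells (SD, n = 4). Its call (adjusted p = 0.028) was lost within pools (0.053 with the pool as a block) and without pools 1, 2 or 3 (0.07 to 0.11). Gstm7 (-0.94), Gstt2 (-0.85) and Gstt3 (-0.94) had adjusted p of 0.036, 0.042 and 0.0052. Only Gstt3 among these 4 kept its call without each of the pools (up to 0.042). That of Gstm7 was lost without pools 2 or 3 (up to 0.15), and that of Gstt2 without pools 1, 2 or 3 (up to 0.19). Gstk1, of mitochondria and peroxisomes, and Gstz1, which isomerises maleylacetoacetate in tyrosine breakdown, were detected on all 16 arrays and not called, with differences of 0.04 and -0.12.

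Of the 20 aldehyde dehydrogenases, 4 were called lower and 2 higher in GFP+ cells, beside 9.97% and 7.76% of all gene probesets, and both counts are small. The family median was -0.10, against 0.08 over all. Aldh1a1, which makes retinoic acid from retinal and oxidises lipid aldehydes, was at 8.26, 8.21, 7.42 and 8.91 in GFP- cells of the vehicle pools. All 4 GFP+ arrays were at background, at 6.24 to 6.65, which made it at least 2.93-fold lower (-1.74, SE 0.27, limma adjusted p = 0.0011). Its close relative Aldh1a7 was at background throughout (-0.26, adjusted p = 0.35). Aldh3a2, which oxidises long-chain fatty aldehydes, was 1.42-fold lower (12.34 ± 0.18 against 12.84 ± 0.11, SD, n = 4; adjusted p = 0.031). It lost its call without any 1 of the 4 pools (0.077 to 0.14) and with array medians subtracted (-0.14, 0.41). Aldh9a1, of carnitine synthesis, and Aldh1l1, which oxidises formyl tetrahydrofolate, had group means under the background level (-1.58 and -1.20, adjusted p = 0.012 and 0.017). The first was lost without pool 2 (0.055) and the other without pool 1 (0.083).

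The 2 genes called higher in GFP+ cells were enzymes of amino acid metabolism. Aldh18a1, which makes the precursor of proline from glutamate, was at 10.16, 10.29, 10.42 and 10.19 in GFP- and 11.47, 11.31, 11.06 and 11.62 in GFP+ cells of the vehicle pools. Every GFP+ array was above every GFP- array, and the gene was 2.14-fold higher (1.10, SE 0.15, limma adjusted p = 0.00057). Aldh5a1, the succinic semialdehyde dehydrogenase that ends GABA breakdown, was at 7.94, 8.25, 7.96 and 7.82 in GFP- and 8.69, 8.63, 8.63 and 8.70 in GFP+ cells. It was 1.59-fold higher, also without overlap (0.67, SE 0.14, limma adjusted p = 0.0061; 0.052 without pool 1). Aldh3b1, which takes fatty and aromatic aldehydes, was at 11.57 ± 0.31 in GFP+ and 11.25 ± 0.30 in GFP- cells (adjusted p = 0.32).

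The remaining calls with vehicle were of dim genes. Sult1e1, the estrogen sulfotransferase and a neighbour of Sult1d1, was at 6.90, 7.40, 6.34 and 7.59 in GFP- cells, above background on 3 of the 4 arrays. It was at background in GFP+ cells, at 3.94 to 6.0, and at least 1.32-fold lower (-2.04, SE 0.40, limma adjusted p = 0.0053). Fmo6, a flavin-containing monooxygenase, was at least 1.02-fold lower (-1.13, SE 0.20, limma adjusted p = 0.003), while Fmo2, detected on all arrays, was not called (8.47 ± 0.14 in GFP+ and 8.74 ± 0.57 in GFP- cells, SD, n = 4). Ces1d, an esterase that also releases fatty acids from stored triacylglycerol, was at least 1.34-fold lower (-0.77, adjusted p = 0.021). That call was lost without pools 3 (0.099) or 4 (0.081) and under both other scalings (0.11 and 0.17). Ces2g (-1.04) and Sult1a1 (-0.80) were at background in both groups, with adjusted p of 0.043 and 0.044. Both calls were lost within pools (0.058 and 0.078 with the pool as a block), that of Ces2g without pools 1, 2 or 3 (0.064 to 0.13) and that of Sult1a1 without pools 2, 3 or 4 (0.12 to 0.24). Within pools limma called 23 genes lower and 2 higher, beside 2237 and 1682 of all 22206 gene probesets. Mgst2, which with Mgst3 is related to leukotriene synthesis, was among them (-0.82, adjusted p = 0.0064 with the pool as a block, 0.13 without).

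GFP+ against GFP- cells with odorant asked the same of the other 4 pools. Of the 99 genes, 12 were called lower in GFP+ cells (7.84% of all gene probesets) and 1 higher (3.57% of all), with a median of 0.08 against 0.10 over all. Values did not overlap for 14 genes lower (9.07% of all) and 3 higher (7.86% of all). At an unadjusted p under 0.05 there were 26, against 22.2% of all. Both group means were at or under the background level for 7 of the 13. Quantile normalization gave 10 lower and 3 higher (1662 and 1266 of all 22206 gene probesets). Subtraction of array medians moved the median of all gene probesets from 0.102 to 0.417. It gave 11 lower and 32 higher (1520 and 7757 of all), 25 of the 32 at background on all 16 arrays. In fits without 1 pool there were 8 to 10 lower and 0 to 1 higher, with 0 higher without pools 1, 3 or 4. Of all 22206, 1410 to 1475 were lower and 507 to 587 higher in those fits. Of the 13 calls, 7 held in all 4 fits. Sustentacular markers were called lower for 3 of 9, Bowman gland markers for 2 of 8, immune markers for 8 of 8, microvillar markers for 7 of 7, globose basal and dividing cell markers for 5 of 5 and immature neuron markers for 4 of 6. The list medians were -1.43, -0.28, -4.80, -3.50, -1.21 and -3.21. Their part in the enzymes' differences was not tested here either.

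Mgst1 was at 11.89, 9.61, 9.31 and 9.87 in GFP- and 7.55, 7.78, 7.07 and 7.50 in GFP+ cells of odorant pools 1 to 4. The fractions did not overlap, and Mgst1 was 6.47-fold lower in GFP+ cells (-2.69, SE 0.47, limma adjusted p = 0.0025). Sult1c1 was at 13.05, 11.10, 11.34 and 11.68 in GFP- and 9.47, 9.21, 8.12 and 8.74 in GFP+ cells. It was 7.51-fold lower without overlap (-2.91, SE 0.41, limma adjusted p = 0.00059). Without odorant pool 1, the pool with the highest GFP- values, the differences were -2.14 for Mgst1 and -2.69 for Sult1c1, and both were called (adjusted p = 0.00046 and 0.00039).

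Gstp1 was at 7.81, 6.99, 7.91 and 7.62 in GFP- cells of the odorant pools and at background in GFP+ cells, at least 1.76-fold lower (-1.68, SE 0.22, limma adjusted p = 0.00028). Gsta3 was at 9.36, 7.25, 8.06 and 7.98 in GFP- cells and at 5.93 to 6.78 in GFP+ cells, at least 2.63-fold lower (-1.94, SE 0.38, limma adjusted p = 0.0053). Neither fraction overlapped the other for these transferases. Aldh1a1 was at 8.96, 8.04, 7.31 and 7.48 in GFP- and 6.70, 7.16, 5.54 and 6.31 in GFP+ cells. Its fractions did not overlap, and it was at least 2.15-fold lower (-1.52, SE 0.40, limma adjusted p = 0.03), a call lost without odorant pools 1 (0.09) or 4 (0.084) and after quantile normalization (0.057). Sult1e1 was at least 1.06-fold lower (-1.38, adjusted p = 0.014; 0.095 without pool 1 and 0.082 without pool 3).

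Other odorant calls lay in the background range. Aldh9a1 had the smallest p of all members, at 6.46, 6.16, 6.08 and 6.17 in GFP- and 4.16, 4.30, 4.26 and 4.26 in GFP+ cells (-1.97, SE 0.14, limma adjusted p = 3.5e-06). All 8 of those values were under the background level, so no fold is given. Gstm7 (-1.23; 0.052 without pool 4), Gsto1 (-1.13; lost in a single fit of all 16 arrays), Gstp2 (-1.27), Sult2b1, a sulfotransferase of cholesterol (-0.63), and Aldh1l1 (-1.08) were also called lower, with adjusted p of 0.0051, 0.0087, 0.0056, 0.021 and 0.037. The call of Sult2b1 was lost without pools 2, 3 or 4 (0.087 to 0.097) and that of Aldh1l1 within pools (0.06) and without pools 1, 2 or 4 (0.086 to 0.19). Sult1b1, a sulfotransferase of thyroid hormones, was the 1 gene called higher (0.53, adjusted p = 0.046), and its call was lost in each fit without 1 pool (0.075 to 0.23) and within pools (0.063).

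Set beside each other, the 2 treatments used different pools. Lower calls were shared by 11 genes: Mgst1, Sult1c1, Sult1e1, Gsta3, Gstm7, Gsto1, Gstp1, Gstp2, Aldh1a1, Aldh1l1 and Aldh9a1. Another 12 were called with vehicle alone and 2 with odorant alone, and 0 were called higher in both. A test of the difference between the treatments, the interaction, called 0 of 99 (0.0% of all gene probesets), with a smallest adjusted p of 0.96, so calls in 1 treatment are not shown to be particular to it. Gstm1, called with vehicle alone, was at 15.67, 14.22, 13.50 and 14.42 in GFP- and 13.92, 13.77, 12.35 and 13.41 in GFP+ cells with odorant (-1.09, adjusted p = 0.17). Its fractions overlapped there, but within every pool the GFP+ array was lower, and with the pool as a block Gstm1 was called (adjusted p = 0.013). GFP+ values were lower in 8 of 8 pools for Mgst1 (differences of -1.82 to -4.51 on the log2 scale), Sult1c1 (-1.89 to -3.72), Gstm1 (-0.45 to -1.80), Gsta3 (-1.21 to -2.58), Gstp1 (-1.15 to -2.59) and Aldh1a1 (-0.88 to -2.42). Aldh18a1 was higher in GFP+ cells in 8 of 8 pools, by 0.64 to 1.42 with vehicle and 0.03 to 1.08 with odorant, where it was not called (0.48, adjusted p = 0.19).

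**Figure D2:**
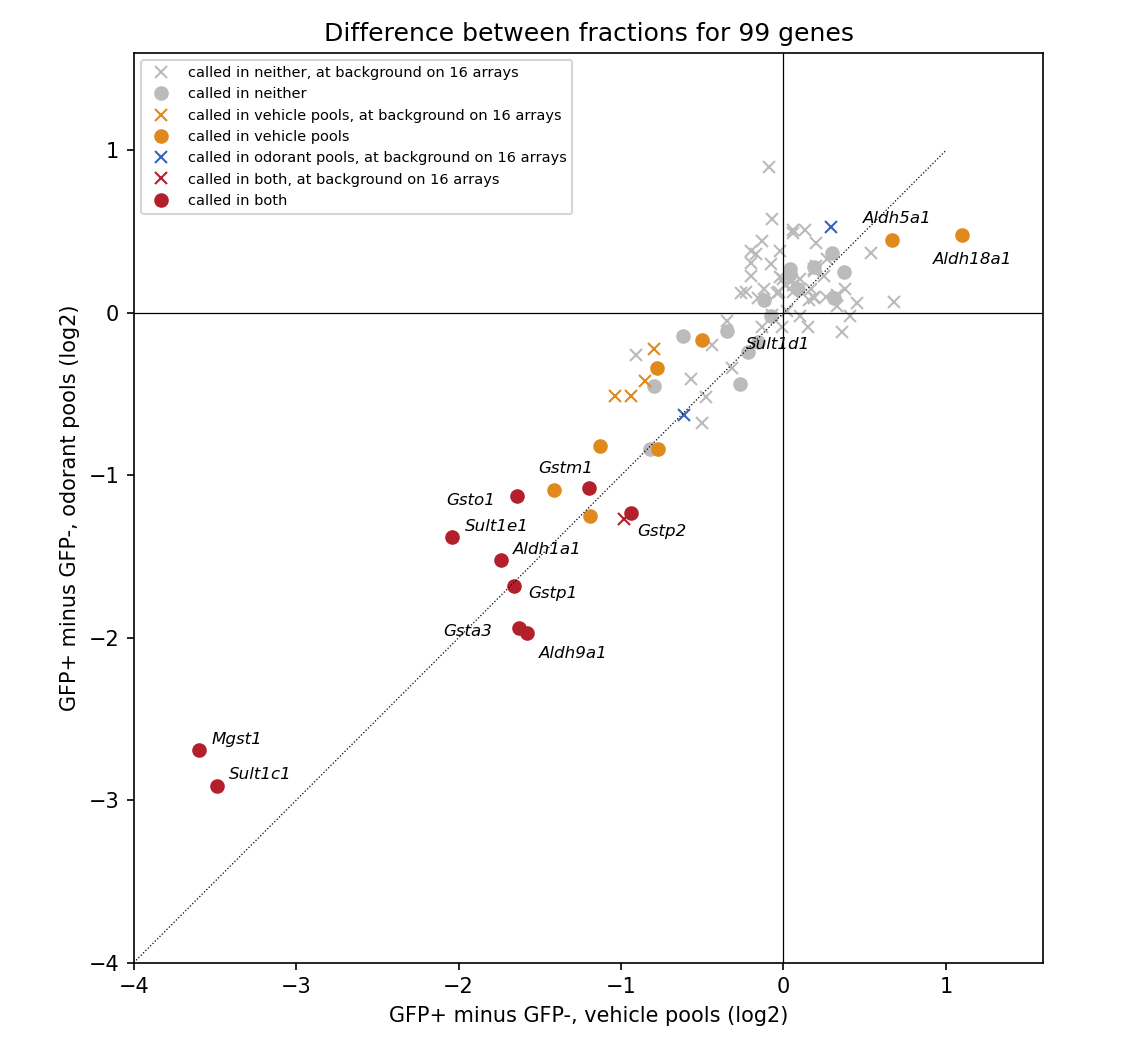
GFP+ minus GFP- difference (log2) of the 99 genes in vehicle pools (horizontal axis) and odorant pools (vertical axis). Colours show in which treatment limma called the gene (adjusted p under 0.05), crosses mark genes at background on all 16 arrays, and the dotted line marks equal differences; Mgst1 and Sult1c1 stand apart at the lower left, and Aldh18a1 lies farthest to the right.

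Among the GFP- arrays, odorant pool 1 often held the highest values. Of the 34 genes above background on at least 1 array, 11 had their highest GFP- value there, more than on any other of the 8 GFP- arrays (1 to 7), a count made after the values were seen. The same was not counted over all gene probesets, so the 11 are not shown to be particular to these enzymes. Mgst1 was at 11.89 there against 9.31 to 9.87 in the other odorant pools, Gstm1 at 15.67 against 13.50 to 14.42, and Gsta3 at 9.36 against 7.25 to 8.06. Sustentacular markers had their highest mean on that array too, 11.2 against 9.84 to 10.19, as did Bowman gland markers, 8.04 against 6.67 to 6.85. Immune markers were at 11.42 there against 10.34 to 10.44. In vehicle mice, pool 4 was highest for Sult1c1 (12.80), Gsta3 (8.49) and Aldh1a1 (8.91) and for the sustentacular mean (10.56 against 9.94 to 10.19). Mgst1 was instead highest in pools 2 and 3 (11.49 and 11.25), where the immune mean was 11.43 and 11.9, against 10.77 and 10.52 in pools 1 and 4. Also highest in pools 2 and 3 were globose basal and dividing cell markers (7.52 and 7.46 against 6.46 and 6.24). Bowman gland markers (7.01 and 7.01 against 6.76 and 6.41) and the red blood cell marker Alas2 (9.91 and 8.77 against 7.98 and 8.08) were too. Microvillar markers were highest in pool 4 (9.63) and immature neuron markers in pool 1 (12.26). The part of these cells in the pools' differences was not tested.

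**Figure D3:**
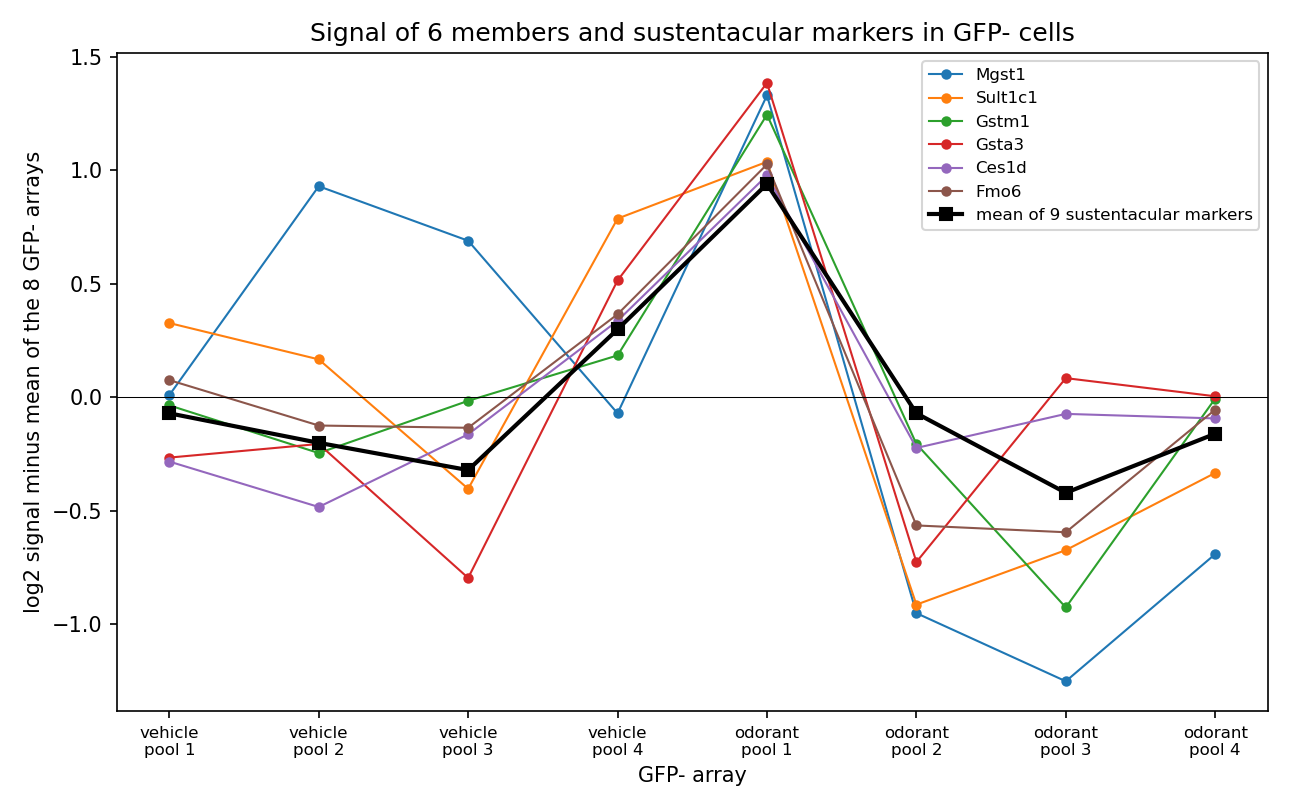
Log2 signal on each of the 8 GFP- arrays, minus each line's own mean over those arrays, for 6 detoxification genes (coloured) and for the mean of 9 sustentacular markers (black). The horizontal axis lists the pools, and the joining lines only help to follow a gene. All 7 lines peak at odorant pool 1, and of these 6 genes only Mgst1 is also high in vehicle pools 2 and 3. The 6 were picked for display. Of the 34 genes above background on at least 1 array, 11 had their highest GFP- value at odorant pool 1. The same was not counted over all gene probesets.

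Odorant against vehicle asked whether 14 h of pulses changed the enzymes. No member was called in GFP+ cells: limma called 0 of 99 (0.0% of all gene probesets), with 2 of 99 at an unadjusted p under 0.05 against 3.82% of all. The groups overlapped for all 99 members, against 1.38% of all that were higher throughout with odorant and 0.919% that were lower. The 2 genes at an unadjusted p under 0.05 were Aldh9a1 (-0.60) and Gstt3 (0.44), both with group means under the background level. In GFP- cells limma likewise called 0 of 99 (0.0% of all), with 1 at an unadjusted p under 0.05 against 6.84% of all. That gene was Aldh18a1, at 10.59, 10.66, 10.60 and 10.90 in GFP- cells with odorant and 10.16, 10.29, 10.42 and 10.19 with vehicle. Its groups did not overlap, the 1 gene of 99 higher throughout (2.24% of all gene probesets), with 0 lower throughout (1.92% of all), and its difference was 0.42 (95% interval 0.10 to 0.74, limma adjusted p = 0.71). For the interaction, 4 of 99 had an unadjusted p under 0.05 against 4.92% of all. Aldh18a1 was 1 of these 4 (-0.62, adjusted p = 0.96), and the other 3, Ces1c, Ugt2b5 and Ugt3a2, were at background on all 16 arrays.

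The intervals show what size of change these arrays bound. Of the 26 genes whose mean over the 16 arrays exceeded the mean background level (6.68), 25 had a 95% interval within 1 log2 unit either way in GFP+ cells. The exception was Gstm1 (0.37, interval -0.36 to 1.11). In GFP- cells 21 of the 26 did, and the exceptions were Mgst1 (-0.78, -1.86 to 0.30), Sult1c1 (-0.44, -1.31 to 0.43), Gsta3 (0.38, -0.52 to 1.27), Gstm5 (-0.09, -1.11 to 0.94) and Aldh1a1 (-0.25, -1.09 to 0.59). The narrowest bounds were on bright genes: Sult1d1 differed by -0.05 in GFP+ cells (-0.33 to 0.23) and Sult4a1 by 0.01 (-0.26 to 0.29). With 4 pools a group, a 2-fold change was not bounded in GFP- cells for Mgst1, Sult1c1, Gstm5 and Aldh1a1 in the lower direction and for Gsta3 in the higher, and was bounded for each in the other direction.

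**Figure D4:**
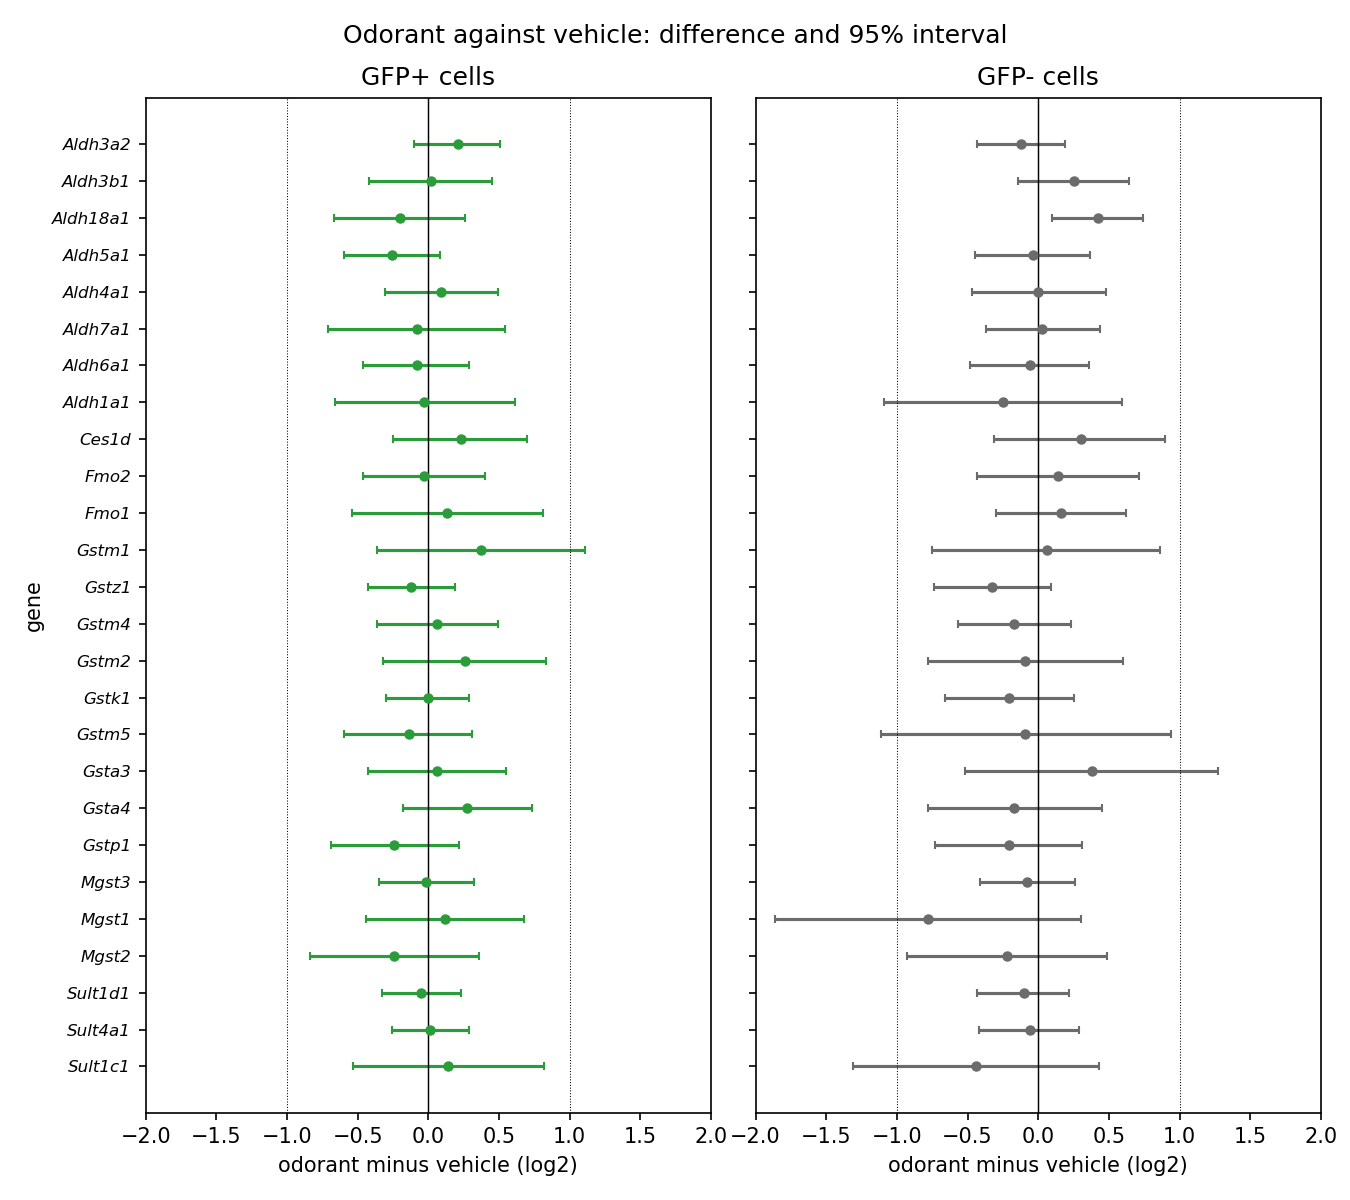
Odorant minus vehicle difference (log2, horizontal axes) with its 95% limma interval in GFP+ (left) and GFP- cells (right) for the 26 genes above the mean background level. Dotted lines mark 1 log2 unit either way; the intervals of Mgst1 and Sult1c1 in GFP- cells reach past it, and that of Aldh18a1 in GFP- cells alone leaves out 0.

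The genes around these enzymes were read from lists of the same pathways, beside 9.97% of all gene probesets called lower in GFP+ cells with vehicle, 7.76% called higher and a median of 0.08. Of 22 genes of glutathione supply and use, 5 were called lower with vehicle and 0 higher (median -0.15). Gpx1, the glutathione peroxidase that removes hydrogen peroxide, was 10.0-fold lower (11.10 ± 0.46 against 14.42 ± 0.68, SD, n = 4; limma adjusted p = 5.7e-05). Gsr, which regenerates glutathione, was 2.76-fold lower and Gclc, the rate-limiting enzyme of its synthesis, 1.41-fold, while Slc7a11, which imports cystine for it, was at least 1.81-fold lower and Gpx6 2.77-fold. With odorant 5 of the 22 were called lower (7.84% of all), Gpx1 6.55-fold, Gpx6 3.20-fold, Gsr 1.93-fold, Slc7a11 at least 1.46-fold and Ggt7 1.64-fold, while Gclc was not called (adjusted p = 0.24). Gpx1 on GFP- arrays with vehicle was highest in pools 2 and 3 (14.86 and 15.13). Markers of immune cells, globose basal and dividing cells, Bowman glands and red blood cells were highest there too. The part of these cells in the difference of Gpx1 was not tested.

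Of 33 other detoxification enzymes, 4 were called lower with vehicle and 0 higher (median 0.10), a share near that of all gene probesets. Aldh2, the mitochondrial enzyme of acetaldehyde, which the symbol rule does not take in, was 10.9-fold lower in GFP+ cells with vehicle and 7.59-fold lower with odorant (limma adjusted p = 5.9e-06 and 0.00052). Pon1 was 2.23-fold lower with vehicle, and Akr1b10 and Aox2 were at background in both groups. Of 14 genes of the Nrf2 pathway, which induces many of these enzymes, 2 were lower (Me1 1.59-fold, Txn1 1.5-fold) and 1, Srxn1, higher (1.78-fold), with a median of -0.02. Nqo1, a standard Nrf2 target, was at 16.31 ± 0.086 and 16.44 ± 0.21 (adjusted p = 0.58). Of 9 genes that supply sulfate and glucuronic acid donors, 1 was higher, the sulfate transporter Slc26a2 (1.59-fold), and 1 lower, Gusb, which removes glucuronic acid again (at least 1.74-fold), with a median of 0.05. These counts are too small to set either list apart from all gene probesets. None of the 6 xenobiotic receptor genes was called, Ahr among them (0.68, adjusted p = 0.093), and of 11 efflux transporters 1 was, Abcg2, with both group means under the background level. With odorant against vehicle, none of these lists had a called gene in either fraction.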

How the data were processed

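The deposited values are log2 probeset signals that the authors made with Affymetrix Expression Console, per the submitters' processing notes. How background was corrected, how arrays were normalized and which build the annotation uses: not given in the sources used here. Values were used as deposited. Each array held cRNA from 50 to 100 ng of RNA. Of 28846 probesets, 6640 controls were left out. All 99 genes matched RefSeq by gene ID, and 0 symbols changed.

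Comparisons used limma 3.58.1 in R 4.3.3 (lmFit, eBayes, two-sided) on the 8 arrays of 2 groups, and all 16 for the interaction. The code was also run on simulated arrays with planted shifts. Their noise was independent between arrays, so that run does not cover fractions that share a pool. Tables and plots were made in Python 3.11.15 with matplotlib 3.10.9. A fold against a group at background uses the background level in place of lower values and is given as "at least". Where both groups are at background no fold is printed. Precision is limited by 4 arrays a group. Nothing labels pools as repeats of 1 extract, and p-values measure the spread between pools.

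GFP+ and GFP- arrays of 1 pool were checked for pairing by correlating, across genes, values centred within groups. The r was 0.113 to 0.156 with vehicle and 0.0136 to 0.356 with odorant. The main fits ignored this pairing, and fits with the pool as a block are given as an alternative.

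The members, marker lists and pathway lists were chosen with earlier results of these data known. Named genes were, in each family, the 3 highest, up to 4 calls per comparison and direction, and partners of near copies. Where nothing was called, the 5 smallest p were taken, and for each pathway list up to 4 calls. Gsta4, Gstm5, Gstm7, Gstp2, Gstp3, Gstt2, Gstt3, Gstm2, Aldh1a7, Aldh6a1, Mgst2, Gpx6, Ggt7, Gsta2, Gstm3, Nqo1 and Ahr were also named, where outside that rule, after their values were seen. Alternatives were quantile normalization, array medians subtracted, 1 fit of 16 arrays, dim probesets left out, a replicate block, and fits without single pools. The block was the pool between fractions and in the interaction. For odorant against vehicle it joined pools of different mice that share only a replicate number.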

Additional observations from a re-analysis of the deposited data

Results flagged for a closer look

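In groups of 4 arrays, 7 of the 180 sets of values of named genes had 1 array far from the other 3. Chance marks about 1 in 20 such sets.

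Ces1d was at 8.20 in GFP- cells of odorant pool 1, against 7.00 to 7.15 in the other odorant pools. Ugt8a was at 5.97 on the same array, against 5.05 to 5.15, and at 4.81 in GFP+ cells of vehicle pool 1, against 4.41 to 4.47. Ugt3a2 was at 3.42 on the first of these arrays, where the others were at 3.72 to 3.78. Gstz1 was at 9.67 in GFP+ cells of vehicle pool 1, against 9.39 to 9.40. Sult1b1 was at 4.59 in GFP+ cells of vehicle pool 4, against 4.92 to 4.97. Ugt2b36 was at 5.73 in GFP+ cells of odorant pool 4, against 4.43 to 4.55. Only Ces1d and Gstz1 were above background there, and all Ugt8a, Ugt3a2, Ugt2b36 and Sult1b1 values were at background on all 16 arrays.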

How the results depend on the processing

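With 4 pools a group, small changes of dim genes cannot be bounded, and 65 of the 99 genes were at background throughout. No odorant effect was called under any alternative run (0 of 99 in GFP+ cells, GFP- cells and the interaction). Between fractions, calls lower and higher with array medians subtracted were 13 and 26 (vehicle) and 11 and 32 (odorant). Of all 22206 gene probesets, 1687 and 10363, and 1520 and 7757, were called there. After quantile normalization, members gave 13 and 4, and 10 and 3, beside 2034 and 2544, and 1662 and 1266, of all. Without dim probesets, which tested fewer genes, members gave 10 and 2, and 5 and 0. Beside them, 1343 and 1716 of 11196, and 1043 and 618 of 11123, were called. In 1 fit of 16 arrays members gave 20 and 2, and 13 and 2, beside 2272 and 1877, and 1776 and 965, of all. Leaving out single pools gave 11 to 17 lower and 1 to 3 higher with vehicle, and 8 to 10 and 0 to 1 with odorant. Of all, these fits called 1633 to 1939 and 846 to 1215 with vehicle, and 1410 to 1475 and 507 to 587 with odorant. With the pool as a replicate block, calls were 23 and 2 with vehicle and 14 and 1 with odorant, beside 2237 and 1682, and 1817 and 883, of all. That block ended the calls of Gsto1, Ces2g and Sult1a1 (vehicle) and of Aldh1l1 and Sult1b1 (odorant), and added lower calls of Gsta2, Gstm2, Gstm3, Mgst2 and Sult2b1 (vehicle) and of Gstm1, Gstm5 and Ugt8a (odorant). The 1 higher odorant call under it was Ces1c. Of the single-gene values named, 635 kept direction and side of the threshold, 52 lost and 14 gained a call, and 28 changed sign, none of them called. The cause was not tested. With array medians subtracted the last were, with vehicle, Fmo1 (0.20), Fmo2 (0.09), Gstz1 (0.24), Sult1d1 (0.29), Ugt2b36 (0.34) and Ugt3a1 (0.20), and with odorant Aldh3a2 (0.14), Fmo1 (0.13) and Sult1d1 (0.29). After quantile normalization they were Fmo1 (0.16), Ugt2b36 (0.10) and Ugt3a1 (0.01) with vehicle and Fmo1 (0.09) with odorant. Over the fits without single pools, values ran with vehicle from -0.29 to 0.28 (Ces5a), -0.27 to 0.06 (Fmo1), -0.46 to 0.08 (Fmo2), -0.08 to 0.23 (Gstm4), -0.18 to 0.01 (Sult1d1), -0.37 to 0.24 (Ugt2b36) and -0.31 to 0.02 (Ugt3a1), and with odorant from -0.05 to 0.22 (Aldh3b1), -0.05 to 0.05 (Sult1d1), -0.06 to 0.72 (Ugt2b36) and -0.33 to 0.58 (Ugt3a1).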
